A study of Mus musculus with 6 samples.

Results

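The genes described here are Wt1, the target of the siRNA, and 7 genes whose proteins were reported to bind the WT1 protein: Wtap, Wtip, Basp1, Pawr, Fhl2, Ciao1 and Amer1. They were picked by current or former symbol from a table of 24061 mouse genes, and all 8 were found, each in 1 row. The table holds RNA sequencing counts of lung fibroblasts in culture, isolated from fibrotic lungs of TGF-alpha transgenic mice. The control group is 3 libraries of cells given stealth control siRNA (numbered 1 to 3), and the other group is 3 libraries of cells given stealth WT1 siRNA (numbered 4 to 6). Every library therefore carries the transgene and a transfected duplex, and no untransfected or non-transgenic group was analysed here. The sources used here do not give the promoter that drives the transgene, the animals' age or the siRNA sequences. Nothing states that the libraries of a group are separate cultures or separate animals, and the spread behind each p-value may therefore be technical. Libraries are called by their number below.

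WT1 is a zinc finger transcription factor of the developing kidney, gonad and mesothelium, first known as a tumor suppressor in Wilms tumor, a childhood kidney cancer. Whether it raises or lowers transcription of a gene depends on the proteins it recruits. Basp1, Pawr and Wtip encode proteins described as corepressors of WT1, though PAWR has also been described as a coactivator, Fhl2 a coactivator, and Ciao1 and Amer1 binding proteins that alter its activity. Wtap was found by its binding to human WT1 and is best known as a subunit of the complex that methylates adenosine in RNA. Much of this was shown in human cells or in kidney and gonad cells.

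Wt1 RNA itself is made in splice variants, which a count per gene adds together. The variants that matter most to its DNA binding differ at the end of exon GRCm38 chr2:105169926-105170018 (plus strand), the exon before the last, where 9 bases are kept or skipped in the linker between the last zinc fingers. GENCODE lists 5 coding transcripts with the longer exon and 2 with the shorter. The junction is shown with 21 bases of coding sequence on either side, with the 9 added bases in capitals, because the counts below cannot tell these forms apart.
Wt1 with the 9 bases: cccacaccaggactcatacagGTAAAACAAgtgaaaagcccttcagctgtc
Wt1 without the 9 bases: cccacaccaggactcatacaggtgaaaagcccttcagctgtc

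Wt1 RNA was much lower after Wt1 siRNA, and 3 of the 7 partner genes changed with it: Pawr fell, and Fhl2 and Amer1 rose, all by less than 2-fold. Of 14190 genes tested 19.3% were called in either direction, 9.05% as higher and 10.3% as lower. A call is a Benjamini-Hochberg adjusted p below 0.05 over all genes tested (edgeR quasi-likelihood test), and every adjusted p below is of this kind. Wtap, Wtip, Basp1 and Ciao1 were not called. All 8 genes passed the filter on low counts, with 238 to 6432 reads in each library. Of the 7 partners 4 had libraries that did not overlap between the groups, against 36.4% of all genes tested. The members are few, so these shares are a description.

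The cells were checked against markers of the cell types such a culture could hold. Total counts were 26.1 to 32.1 (in units of 1e6). All 8 fibroblast markers were present, with a summed level of 14940 to 21946 counts per 1e6 counts (CPM) in controls and 27610 to 34836 CPM after Wt1 siRNA. Most of that sum was Col1a1 and Col1a2, the chains of type I collagen, with means of 7982 and 5793 CPM in controls and 17421 and 9655 CPM after Wt1 siRNA. Of the 8, 5 were higher (Col1a1, Col1a2, Dcn, Lum and Vim) and Pdgfra, a growth factor receptor, was lower (1181 to 523 CPM, adjusted p = 1.48e-04), while Pdgfrb and Thy1 were not called. The lung epithelial markers Sftpa1 and Scgb1a1 had no reads and Sftpc at most 0.226 CPM, and the leukocyte marker Ptprc lay at 0.211 to 1.17 CPM. Some other markers of these lists were present in every library. Among the epithelial markers Krt7 lay at 7.67 to 21.4 CPM, Epcam at 4.69 to 6.83 CPM and Cdh1 at 3.88 to 8.27 CPM. The leukocyte marker Lyz2 lay at 18.4 to 24.7 CPM and made up most of the leukocyte sum. The 8 epithelial markers summed to 20.4 to 33.6 CPM in controls and 26.5 to 30.3 CPM after Wt1 siRNA, the 8 leukocyte markers to 21.2 to 29.3 and 22.4 to 29.0 CPM, and the 6 endothelial markers to 98.7 to 124 and 84.3 to 103 CPM. Of the endothelial markers only Kdr was called, as lower (-0.88 ± 0.23, adjusted p = 0.0191). Mesothelial cells also express Wt1. Their 10 listed markers summed to 239 to 295 CPM in controls and 185 to 232 CPM after Wt1 siRNA. Of these 10, 5 were lower (Upk3b, Lrrn4, Krt18, Calb2 and Bnc1), 3 were higher (Msln, Krt19 and Nkain4) and 2 were not called. That was 80% called, and 75% of the fibroblast markers were called, against 19.3% of all genes tested. The part of mesothelial cells in the results below was not tested. In bulk RNA fewer cells of a type and less RNA per cell cannot be told apart.

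Wt1 (gene ID 22431, GRCm38 chr2:105126529-105173614) had 48.8, 55.7 and 51.5 CPM in control libraries 1 to 3 and 11.4, 8.63 and 7.92 CPM in Wt1 siRNA libraries 4 to 6. The groups were far apart, and library 4 kept the most Wt1 RNA of the treated libraries. The log2 fold change was -2.48 ± 0.16 (SE, n = 3 per group; 95% interval -2.83 to -2.14, adjusted p = 5.98e-06), so that 17.9% of the control level was left. In absolute reads this was 306, 238 and 253 reads, so that the remaining level was measured well above the 3 reads taken as a floor. By size this was number 36 among the falls of all 14190 genes, and by p it was number 5. With any single library left out the log2 fold change stayed between -2.65 and -2.38.

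**Figure D1:**
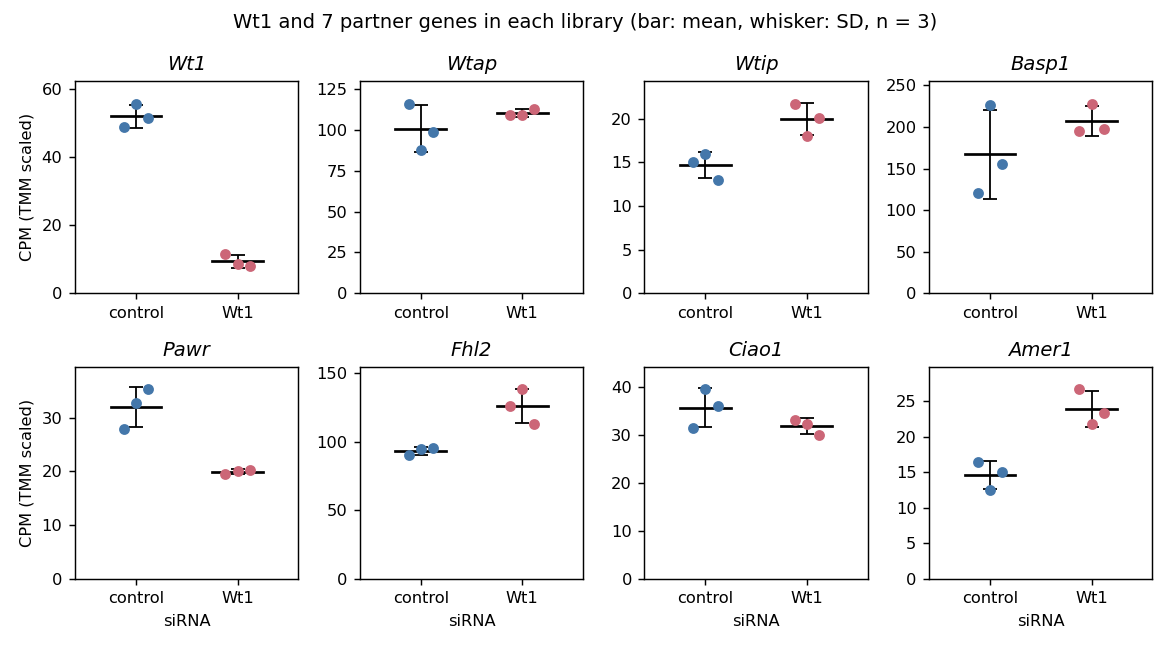
Counts per 1e6 counts (CPM, scaled with TMM factors, y axis) of Wt1 and its 7 partner genes in each library, by siRNA (x axis); points are libraries, bars group means and whiskers SD (n = 3). Wt1 falls from 52 to 9.31 CPM, Pawr libraries separate downward, and those of Fhl2, Amer1 and Wtip separate upward, while Wtap, Basp1 and Ciao1 overlap.

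Among the genes encoding corepressors, Pawr fell. Pawr (gene ID 114774, chr10:108332189-108414391) encodes prostate apoptosis response 4, a leucine zipper protein that sensitises cells to apoptosis and binds the zinc fingers of WT1. It had 27.9, 32.7 and 35.3 CPM in the controls and 19.5, 20.1 and 20.3 CPM after Wt1 siRNA. Every treated library lay below every control, and the treated libraries lay within 1 CPM of each other. The log2 fold change was -0.68 ± 0.13 (95% interval -0.97 to -0.39, adjusted p = 0.00428), or 1.6-fold lower. The call held in all 13 alternatives tried, with adjusted p up to 0.0326.

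Basp1 (gene ID 70350, chr15:25363277-25413764) encodes a membrane-bound phosphoinositide-binding protein that also acts in the nucleus as a WT1 corepressor. It had 121, 226 and 155 CPM in the controls and 195, 228 and 198 CPM after Wt1 siRNA. Control library 2 stood as high as the treated libraries, and the controls varied with a coefficient of variation of 32% against 8.74% after Wt1 siRNA. The log2 fold change of 0.31 ± 0.18 was not called (adjusted p = 0.284), and its 95% interval of -0.10 to 0.71 allows anything from a small fall to a fold of 1.63. Without library 2 the log2 fold change was 0.59 with adjusted p = 0.0105, and without library 1 it was 0.12, so that single control libraries decide this value.

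Wtip (gene ID 101543, chr7:34109547-34133268) encodes a LIM domain adaptor of cell junctions that moves to the nucleus of podocytes, where it binds WT1. It had 15.0, 15.9 and 13.0 CPM in the controls and 21.7, 18.0 and 20.1 CPM after Wt1 siRNA. All treated libraries were above all controls, but the log2 fold change of 0.44 ± 0.15 missed the threshold (95% interval 0.11 to 0.78, unadjusted p = 0.0136, adjusted p = 0.0626). It was not called in any of the 13 alternatives, where the adjusted p was 0.0547 to 0.231.

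Of the gene for the coactivator, Fhl2 (gene ID 14200, chr1:43123071-43198343), RNA was higher. FHL2 is a LIM-only protein that carries signals between the cytoskeleton and the nucleus. It had 89.9, 94.8 and 95 CPM in the controls and 126, 138 and 113 CPM after Wt1 siRNA. The controls lay close together, with a coefficient of variation of 3.12%, and every treated library was above them. The log2 fold change was 0.43 ± 0.11 (95% interval 0.19 to 0.67, adjusted p = 0.0160), or 1.35-fold higher. The call was lost without library 1 (adjusted p = 0.0507), library 4 (0.0806) or library 5 (0.0742), with log2 fold changes of 0.36 to 0.43 in these fits.

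The gene with the largest rise among the partners was Amer1 (gene ID 72345, chrX:95420313-95444840), formerly Wtx. It encodes a membrane-associated scaffold that promotes breakdown of beta-catenin and is itself mutated in some Wilms tumors. It had 16.4, 12.5 and 15.1 CPM in the controls and 26.7, 21.8 and 23.4 CPM after Wt1 siRNA. The groups did not overlap, and the log2 fold change was 0.71 ± 0.16 (95% interval 0.37 to 1.05, adjusted p = 0.00820), or 1.63-fold higher. Leaving out each library gave 0.60 to 0.80, and the call was lost without library 4 (0.62, adjusted p = 0.0600).

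Ciao1 and Wtap overlapped between the groups. Ciao1 (gene ID 26371, chr2:127240938-127247816) encodes a WD repeat protein that hands iron-sulfur clusters to enzymes of the cytosol and nucleus. It had 31.5, 39.5 and 36.1 CPM in the controls and 33.1, 32.3 and 29.9 CPM after Wt1 siRNA, a log2 fold change of -0.17 ± 0.13 (adjusted p = 0.402). Its 95% interval in linear terms was 0.733 to 1.08 times the control level. Wtap (gene ID 60532, chr17:12966799-12992543) had 116, 87.4 and 98.4 CPM in the controls and 109, 109 and 113 CPM after Wt1 siRNA. The treated libraries sat inside the range of the controls, and the log2 fold change was 0.13 ± 0.12 (adjusted p = 0.478). The interval of 0.919 to 1.31 times the control level does not reach a 1.5-fold change. No call was made for Ciao1 or Wtap in any of the 13 alternatives.

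**Figure D2:**
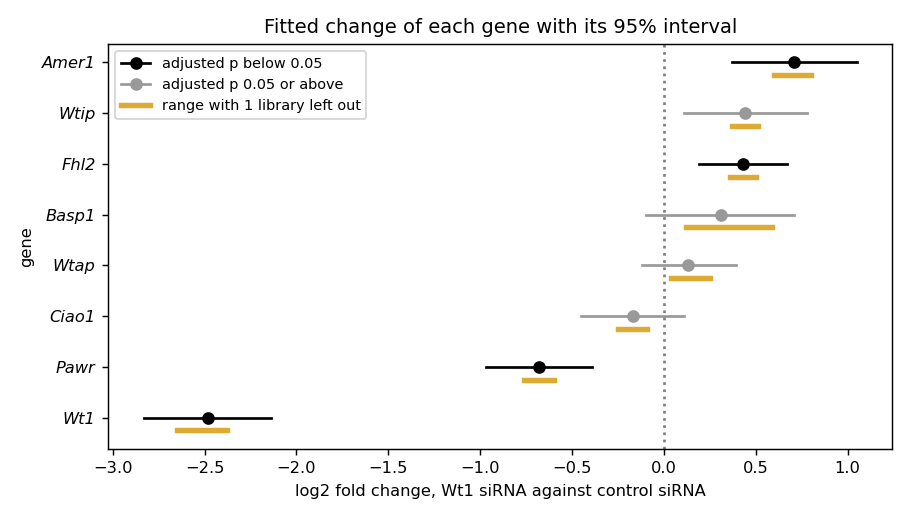
Log2 fold change after Wt1 siRNA (x axis) of each gene (y axis), with its 95% interval as a line; the yellow bar is the range of values when each of the 6 libraries is left out in turn. Wt1 stands at -2.48, away from its partners, which lie between -0.68 for Pawr and 0.71 for Amer1; the yellow bar of Basp1 is wide, from 0.12 to 0.59.

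The partner genes differed widely in level, compared here as CPM per kb of annotated exons. In the controls Basp1 stood highest at 83.4 ± 26.7 (SD, n = 3), followed by Fhl2 at 49.1 ± 1.54. Basp1 was at 60.4 to 113 and Fhl2 at 47.4 to 50.1 in single control libraries, so that they did not overlap. Pawr (18.3 ± 2.15) and Wtap (16.1 ± 2.27) came next and overlapped each other. Ciao1 (11.2 ± 1.25), Wt1 (8.39 ± 0.565), Wtip (6.14 ± 0.608) and Amer1 (1.73 ± 0.233) followed, without overlap between neighbours. After Wt1 siRNA Wtap (17.7 ± 0.334) was above Pawr (11.4 ± 0.235), and Wt1 was lowest at 1.5 ± 0.295, below Amer1 at 2.82 ± 0.295. These ranks lean on the length used for Wt1 and Wtap, which each have 9 annotated transcripts. With the longest transcript in place of all exons, Wt1 had 16.8 CPM per kb in controls, above Ciao1 at 11.6, and 3.01 after Wt1 siRNA, above Amer1 at 2.82. By that length Wtap was above Pawr in both groups.

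Divided by Wt1 in the same library, every partner gained, which restates the fall of Wt1 together with each partner's own change. The ratio does not depend on how libraries are scaled, but it depends on the length used for each gene, here all annotated exons. Basp1 per kb was 7.66, 12.5 and 9.28 times Wt1 in the controls and 52.8, 81.4 and 77.3 times Wt1 after Wt1 siRNA. Fhl2 went from 6.01, 5.55 and 6.03 times Wt1 to 36.2, 52.1 and 46.6. Pawr, the partner that fell, still went from 2.03, 2.08 and 2.43 times Wt1 to 6.08, 8.26 and 9.09. Wtip went from below Wt1 in all 3 controls (0.659 to 0.799) to 4.95 to 6.59 times Wt1, and Amer1 from 0.164 to 0.245 to 1.71 to 2.16. Ratios of Wtap went from 1.55 to 2.35 to 9.53 to 14.1, and those of Ciao1 from 1.25 to 1.37 to 5.64 to 7.31. With the longest transcript as length, the mean ratio of Amer1 after Wt1 siRNA was 0.95 in place of 1.9, below equality with Wt1, and that of Ciao1 in the controls 0.689 in place of 1.33. By that length Ciao1, not Amer1, went from below to above Wt1, the treated means of Pawr (3.9 in place of 7.81), Basp1 (38.1 in place of 70.5), Fhl2 (27.2 in place of 45) and Wtip (3.42 in place of 5.65) were lower, and the gain of each partner was unchanged, since the lengths cancel between groups. In each partner the lowest treated ratio was that of library 4, which kept the most Wt1 RNA.

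**Figure D3:**
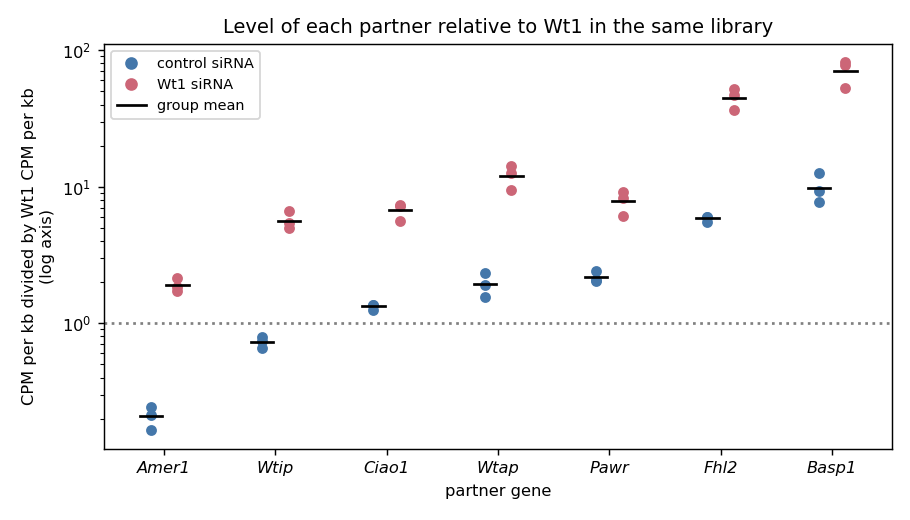
CPM per kb of each partner gene (x axis) divided by that of Wt1 in the same library (y axis, log scale); points are libraries, black lines means of 3 libraries, and the dotted line is equality with Wt1. Treated libraries lie above controls for all 7 partners; with all exons as length, Amer1 and Wtip cross from below to above the dotted line, while with the longest transcript Amer1 does not (mean 0.95) and Ciao1 does (0.689 to 3.49).

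The genes that share a complex or family with the partners were looked at from lists. The lists are short, so the shares called in them are a description, given beside the share of all genes tested. Wtap belongs to the complex that writes N6-methyladenosine (m6A) into RNA. Of 18 genes of m6A writers, erasers and readers 0 were higher and 2 lower, or 11.1% called against 19.3% of all genes tested. Their median (log2 fold change) was 0.00, as was that of all genes tested, 0.00. DESeq2 and limma-voom also called 0 as higher, and at an unadjusted p below 0.05 there were 2. The catalytic subunit gene Mettl3 had 19.1, 16.3 and 19.4 CPM in the controls and 16.4, 20.2 and 17.2 CPM after Wt1 siRNA (-0.03 ± 0.15, adjusted p = 0.932). Zc3h13, which anchors the writer complex in the nucleus, fell from 60.7, 93.9 and 79.4 CPM to 41.1, 52.8 and 41.2 CPM (-0.79 ± 0.16, adjusted p = 0.00561). Igf2bp2, an m6A reader that stabilises bound mRNA, fell from 74.9, 87.0 and 82.4 CPM to 47.8, 49.7 and 47.2 CPM (-0.76 ± 0.11, adjusted p = 6.81e-04). Neither fall was lost in any of the 13 alternatives.

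Fhl2 and Wtip belong to families of LIM domain adaptors, several of which sit at focal adhesions and can enter the nucleus. Of 10 such genes 3 were higher and 0 lower in edgeR (median 0.11), with 1 lower at an unadjusted p below 0.05. That was 30% called, against 19.3% of all genes tested. Ajuba, the relative of Wtip, rose from 37.4, 30.6 and 36.0 CPM to 67.4, 67.9 and 57.5 CPM (0.89 ± 0.13, adjusted p = 6.46e-04). Zyx, encoding zyxin of focal adhesions, rose by 0.52 ± 0.10 (adjusted p = 0.00318). Fhl1, the abundant relative of Fhl2 in these cells, rose from 1076, 1480 and 1373 CPM to 2048, 2795 and 1714 CPM (0.74 ± 0.17, adjusted p = 0.0100). These 3 rises were called in all 13 alternatives. The other relatives were not called: Fhl3 had a log2 fold change of -0.05 ± 0.13 (adjusted p = 0.829) and Limd1 of -0.23 ± 0.12 (adjusted p = 0.199), while Fhl4 and Fhl5 stayed at or below 1.26 CPM in all libraries. Lpp, a zyxin relative outside the rule for named genes, was at -0.33 ± 0.11 with adjusted p = 0.0538, which fell below 0.05 under 7 alternatives, DESeq2 (0.0249) and limma-voom (0.0453) among them.

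Amer1 works with the complex that marks beta-catenin for breakdown. Of 10 tested genes of that complex 2 were higher and 0 lower (median 0.02), or 20% called against 19.3% of all genes tested. For a lower level 2 had an unadjusted p below 0.05, with 0 called as lower by DESeq2 and limma-voom. Fbxw11, a ubiquitin ligase subunit that recognises phosphorylated beta-catenin, rose by 0.41 ± 0.10 (adjusted p = 0.0137), and Apc, the scaffold that Amer1 binds, by 0.38 ± 0.11 (adjusted p = 0.0276). The call of Fbxw11 was lost without library 4 and with library size scaling (adjusted p 0.0522 to 0.0769). That of Apc was lost in these fits and also without library 1, 2 or 6 (0.0504 to 0.111), so that 0 genes were higher without library 4 and 1 without library 1, 2 or 6. The Amer1 relatives Amer2 and Amer3 were not tested: Amer3 had no reads, and Amer2 at most 0.0362 CPM. Ctnnb1, beta-catenin itself, was at 888, 811 and 988 CPM in the controls and 982, 997 and 1033 CPM after Wt1 siRNA (0.16 ± 0.10, adjusted p = 0.301).

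None of the 8 genes tested from cytosolic iron-sulfur assembly, the pathway of Ciao1, was called in edgeR, DESeq2 or limma-voom, and 0 had an unadjusted p below 0.05 (median -0.04). In edgeR 19.3% of all genes tested were called. The genes for its direct partners, Mms19 (-0.16 ± 0.11, adjusted p = 0.378) and Ciao2b (-0.35 ± 0.19, adjusted p = 0.237), overlapped between the groups. None of 3 genes for membrane proteins related to Basp1 was called in edgeR, DESeq2 or limma-voom, and 0 had an unadjusted p below 0.05. Marcks lay at 371 to 401 CPM in the controls and 412 to 430 CPM after Wt1 siRNA (0.14 ± 0.09, adjusted p = 0.362). Marcksl1 was at -0.14 ± 0.16 (adjusted p = 0.603), and Gap43 had 0.0926 to 1.48 CPM in the controls.

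Of 9 genes for proteins that bind or act on Pawr 3 were higher and 1 lower (median 0.28), or 44.4% called against 19.3% of all genes tested. Hspa5, the chaperone GRP78 that is the cell surface receptor of secreted PAWR, rose from 902, 820 and 840 CPM to 1327, 1329 and 1210 CPM (0.59 ± 0.10, adjusted p = 0.00137, called in all 13 alternatives). Sqstm1, the autophagy receptor p62, rose by 0.43 ± 0.12 (adjusted p = 0.0238) and Nfkb1, a subunit of NF-kappaB, by 0.37 ± 0.11 (adjusted p = 0.0320). Fbxo45, encoding the ubiquitin ligase subunit that marks PAWR for breakdown, fell by 0.52 ± 0.17 (adjusted p = 0.0464). The calls of these last 3 genes changed with the libraries used, while the direction did not. That of Nfkb1 was lost when any of the 6 libraries was left out and with library size scaling (adjusted p 0.0553 to 0.106, log2 fold changes of 0.29 to 0.41). That of Sqstm1 was lost with library size scaling and without library 1, 3, 4, 5 or 6 (0.0561 to 0.0928, with 0.33 to 0.44), and in each of these fits 1 gene of the list was higher. Fbxo45 was not called without library 1, 3, 5 or 6 (0.109 to 0.157, with -0.51 to -0.43), where 0 genes were lower.

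**Figure D4:**
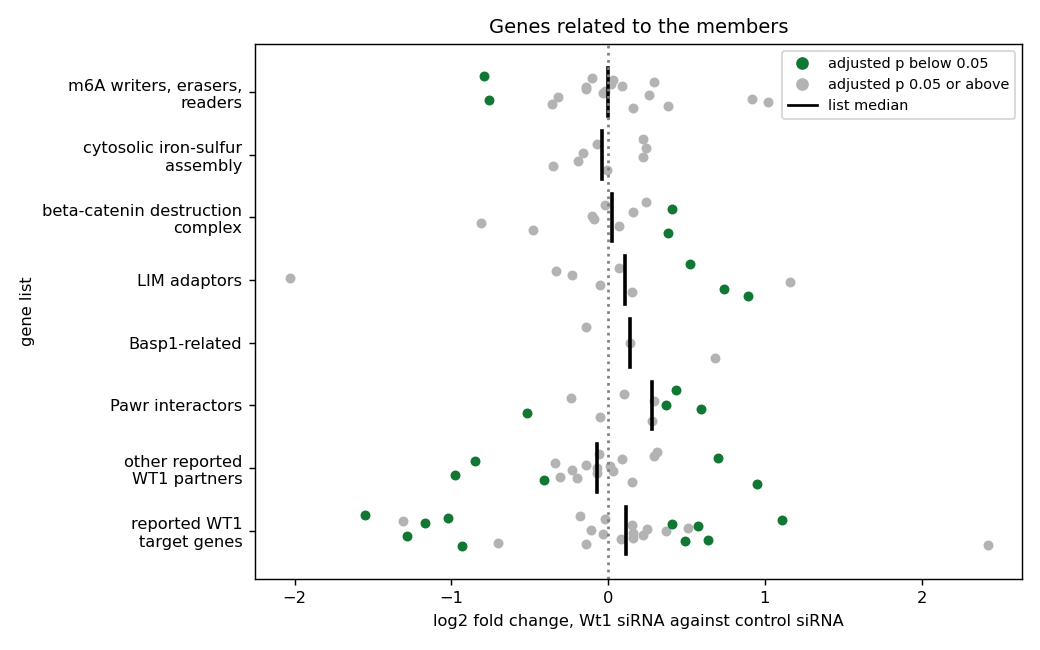
Log2 fold change after Wt1 siRNA (x axis) of each tested gene in 8 lists of genes related to Wt1 and its partners (y axis); green points have an adjusted p below 0.05, grey points do not, and black lines are list medians. Medians lie between -0.07 and 0.28, and each list that holds green points also holds grey ones.

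Other proteins reported to bind WT1 were covered by a list of 22 genes, of which 19 were tested, 2 were higher and 3 lower (median -0.07). That was 26.3% of the tested genes, against 19.3% of all genes tested. Trp73, Nr5a1 and Nr0b1 had no reads in any library, where 3 reads are worth 0.0935 to 0.115 CPM. Hdac1, a histone deacetylase of corepressor complexes, fell from 80.4, 99.0 and 88.1 CPM to 44.0, 47.2 and 44.7 CPM (-0.98 ± 0.12, adjusted p = 2.00e-04). Suz12, a subunit of the Polycomb complex that methylates histone H3, fell from 67.9, 58.4 and 73.0 CPM to 33.5, 33.8 and 43.0 CPM (-0.85 ± 0.14, adjusted p = 0.00134). Cited2, a coregulator that binds the CBP and p300 acetyltransferases, rose from 109, 105 and 128 CPM to 209, 211 and 243 CPM (0.95 ± 0.12, adjusted p = 2.46e-04). In these 3 genes the groups were well apart and the calls held in all 13 alternatives. Dnmt1, the maintenance DNA methyltransferase, fell by 0.41 ± 0.11 (adjusted p = 0.0198), but was not called without library 3, 4 or 5 (0.0521 to 0.113). Tet3, a DNA demethylase and the fifth called gene, named outside the rule, overlapped between groups at 0.70 ± 0.22 (adjusted p = 0.0482). It lost its call in 7 alternatives, with adjusted p up to 0.165, among them the fits without library 1, 3, 4 or 5, where 1 gene of the list was higher. The acetyltransferase genes Crebbp (0.15 ± 0.10, adjusted p = 0.351) and Ep300 (-0.20 ± 0.12, adjusted p = 0.270) and the p53 gene Trp53 (0.29 ± 0.12, adjusted p = 0.101) were not called.

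Genes reported as direct WT1 targets in other tissues moved both ways: of 26 tested 5 were higher and 5 lower (median 0.11). That was 38.5% called, against 19.3% of all genes tested. Spry1, an inhibitor of growth factor signalling, rose from 45.6, 46.1 and 50.3 CPM to 103, 126 and 76.8 CPM (1.11 ± 0.16, adjusted p = 6.86e-04). Csf1, the macrophage growth factor, rose from 828, 766 and 871 CPM to 1340, 1340 and 1156 CPM (0.64 ± 0.10, adjusted p = 0.00137). Aldh1a2, an enzyme that makes retinoic acid, fell from 102, 77.1 and 84.3 CPM to 50.8, 37.9 and 49.5 CPM (-0.93 ± 0.15, adjusted p = 0.00112). Snai1, whose product represses the E-cadherin gene Cdh1, fell from 37.3, 43.1 and 46.3 CPM to 16.8, 19.6 and 20 CPM. The calls of these 4 genes held in all 13 alternatives. Cdh1 itself, in the same list, had 6.36, 8.27 and 7.1 CPM in the controls and 3.94, 3.88 and 5.54 CPM after Wt1 siRNA. It was lower but not called (-0.70 ± 0.24, adjusted p = 0.0643). The number of higher targets was 2 without library 1, 3 or 5, and 3 without library 4 or 6.

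By likeness across the 6 libraries, measured as Pearson's r of log2 CPM with Wt1, the genes most like Wt1 were Clspn (0.999), Pura (0.998), Rad50 (0.997), Kbtbd4 (0.997) and Mbd1 (0.997). Clspn had 14.6, 17.2 and 16.1 CPM in the controls and 5.49 ± 0.631 CPM after Wt1 siRNA, while Mbd1, with nearly the same r, fell by 0.32 ± 0.10 on the log2 scale. The genes most unlike it were Zc3h15 (-0.998), Cluh (-0.996) and Guk1 (-0.996). Of these Guk1 was called higher (0.77 ± 0.13, adjusted p = 0.0016). The small rises of Zc3h15 (0.26 ± 0.10, adjusted p = 0.0816) and Cluh (0.27 ± 0.11, adjusted p = 0.102) were not called. A gene that differs clearly between the groups can reach an r near 1 or -1, because the 6 points share the same 2 groups. Of 10591 genes with mean log2 CPM of at least 2, 380 had an r above 0.95 and 364 below -0.95. Among the partners Pawr had an r of 0.95 and Ciao1 of 0.68, while Amer1 had -0.91, Fhl2 -0.90, Wtip -0.85, Wtap -0.56 and Basp1 -0.51. These values include the difference between the groups. After each group's mean was subtracted, Pawr had an r of 0.03, and Wtip (0.52), Fhl2 (0.35), Basp1 (0.23) and Amer1 (0.20) had positive values. Ciao1 (0.63) and Wtap (-0.40) kept their sign. These last values rest on 6 points with 2 group means removed and were not tested, so their size and sign are a description only.

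The regions before the annotated starts of the partners that changed are shown to let the sequence be seen beside the values. RefSeq promoter entries (GRCm38.p6) were found for 6 of the 8 genes, and for Wt1 and Amer1 none was used here. The windows are the 250 bases before each start that has such an entry, 1 for Pawr and 2 for Fhl2. The 2 for Fhl2 are called its first and second start below, and a count per gene adds all starts together. The Fhl2 gene as annotated reaches to 43198343, upstream of both windows on its strand. A start at that end is not covered by the windows here. Capitals mark GGGCGG, the GC box bound by factors of the Sp family, on either strand.
Pawr, chr10:108331939-108332188, plus strand: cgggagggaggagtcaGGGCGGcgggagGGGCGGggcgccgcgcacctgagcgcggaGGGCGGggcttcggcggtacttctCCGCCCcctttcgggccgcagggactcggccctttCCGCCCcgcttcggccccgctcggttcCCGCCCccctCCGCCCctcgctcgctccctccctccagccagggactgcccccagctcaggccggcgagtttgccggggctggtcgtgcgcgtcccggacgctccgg
Fhl2, first start, chr1:43196762-43197011, minus strand: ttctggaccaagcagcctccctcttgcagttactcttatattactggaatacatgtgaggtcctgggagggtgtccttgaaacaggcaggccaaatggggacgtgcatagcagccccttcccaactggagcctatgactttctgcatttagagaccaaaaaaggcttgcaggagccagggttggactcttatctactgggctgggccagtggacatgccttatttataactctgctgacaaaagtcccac
Fhl2, second start, chr1:43163962-43164211, minus strand: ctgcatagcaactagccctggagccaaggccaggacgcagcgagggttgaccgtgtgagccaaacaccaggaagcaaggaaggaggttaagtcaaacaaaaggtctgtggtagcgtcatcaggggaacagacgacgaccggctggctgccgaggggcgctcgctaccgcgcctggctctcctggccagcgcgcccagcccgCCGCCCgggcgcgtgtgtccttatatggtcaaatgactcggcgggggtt

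The Pawr window held 7 GC boxes and 78.4% G and C, against a median of 52.4% over 32817 windows. Windows of the partners that were not called were also rich in G and C. Basp1 had 78.8% with 4 boxes, Wtip 73.6% with 3 and Ciao1 69.6% with 2. The windows of Wtap had 68% to 80% with 2 or 3 boxes each. Of the Fhl2 windows the first held 0 boxes and 50.4% G and C, and the second 1 box and 63.6%. GGGCGG was found in 32.7% of all windows. The sequences GCGTGGGAG, a binding site described for WT1, GCGGGGGCG, the site of the related EGR factors, and TCCTCCTCC, another sequence described for WT1, were searched on both strands in the 9 windows of the 6 genes and matched in 0 of them. They were found in 0.405%, 2.57% and 2.45% of all windows. GCGGGGGCG and GGGCGG overlap in part of their letters, and a missing match says only that these letters are not in these windows.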

How the data were processed

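RNA of 6 libraries, 3 with control siRNA and 3 with Wt1 siRNA, was measured by sequencing. The authors deposited raw counts of reads per Entrez gene ID, without normalization. Tools named in the submitters' processing notes, with no role, are TopHat, DESeq, bcl2fastq and CASAVA 1.8, and the build is mm10 (GRCm38). For the counting tool, the annotation and the strand setting the sources used here give nothing, so reads of overlapping or near-identical genes (such as Hspa1a and Hspa1b) could be shared.

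Of 24061 IDs, 23976 matched symbols in RefSeq GRCm38.p6. Exon lengths came from GENCODE vM21 (GRCm38). Counts were fitted with edgeR 4.0.16 in R 4.3.3: TMM factors (0.94 to 1.07), filterByExpr (14190 genes kept), the siRNA group alone, quasi-likelihood F test, Benjamini-Hochberg adjustment. SE was derived from the fold change and its F value, and 95% intervals use the t distribution. CPM use the TMM factors; likeness used log2 CPM with a prior count of 2. Alternatives used DESeq2 1.42.0 and limma 3.58.1, other scalings and filters, and each library left out. The procedure was tested on simulated data of 14190 genes with 200 changed, where it called 29.9% of 1.5-fold, 68.7% of 2-fold and 86.9% of 4-fold changes. In the measured data 19.3% of genes were called. The adjustment is stricter when fewer genes change, and the simulated rates were not split by read number. They therefore do not give the rates for the genes described here, which were not tested. A gene that was not called may still have changed. Intervals cover the spread between libraries only.

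Named genes are the 8 members, up to 4 called genes per related list by smallest p, relatives of the members, and the genes most like and unlike Wt1 (5 and 3). Other genes with values, such as Mettl3, Ctnnb1, Mms19, Ciao2b, Crebbp, Ep300, Trp53, Lpp and Tet3, were added after their values were seen. The promoter motifs were chosen after the data were seen, GGGCGG after the other motifs had matched no window of the members. The members and lists were chosen with earlier results of these data known.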

Additional observations from a re-analysis of the deposited data

How the results depend on the processing

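Over 13 alternatives for each of the 8 genes, 99 of 104 values kept their direction and their side of the threshold, and 0 turned direction. Wt1 and Pawr were called and Wtap, Wtip and Ciao1 not called throughout. Without 1 library the log2 fold change of Fhl2 ranged from 0.36 to 0.50, of Amer1 from 0.60 to 0.80 and of Basp1 from 0.12 to 0.59; the calls that changed are given with each gene, and the cause was not tested. Counts over all genes were 1284 higher and 1459 lower, with 578 to 1253 higher and 785 to 1406 lower when 1 library was left out (fewest without library 4, and 836 higher without library 5). Library size scaling gave 855 higher, with the median of all genes at -0.08. Counts in the related lists moved by over 1.5 times, or away from 0, in 33 of 208 values. Several of these counts were 0 in edgeR, and a 0 that stayed 0 was taken as not moved. The share therefore understates how often counts above 0 moved. With the longest transcript as length, the control order of Wt1 and Ciao1, and of Wtap and Pawr, was exchanged. No paired analysis was possible from the labels, because the groups share no replicate number. The labels number the libraries 1 to 3 and 4 to 6 and state no pairing, so a block by order was not fitted. Some genes follow that order, such as Basp1, highest in libraries 2 and 5, and others do not, such as Wt1, highest in libraries 2 and 4. Whether libraries share a source was not tested, and the SE values take them as unpaired. The 8 genes had at least 238 reads per library, with 3 libraries per group. The part of read number and of the number of libraries in the precision was not tested.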
